A study of Rattus norvegicus with 12 samples.

Results

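The 3 genes described here, Cst6, Cldn4 and Mt3, were taken by symbol out of 21797 genes in the deposited rat expression table. They were chosen by their FPKM values (fragments per kilobase of transcript and per unit of library size), which in MFN+GelMA implants were higher at 4 weeks than at 2 weeks. That comparison is therefore given as a description without a test, and so is every comparison that shares the MFN+GelMA libraries. The comparison whose libraries the choice did not use was GelMA at 4 weeks against GelMA at 2 weeks, and it carries the only tests of the 3 genes. The study asked how rat tissue responded to GelMA (gelatin methacryloyl, a light-cured gelatin hydrogel) alone or joined with microfibre, written MFN in the labels, which do not spell the abbreviation out. Total RNA of the tissue labelled subcutaneous tissue/muscle was sequenced after removal of ribosomal RNA. The groups were implants of MFN+GelMA after 4 weeks (4W) and after 2 weeks (2W), followed by implants of GelMA at both times, with 3 libraries each and 12 in all. Every animal carried GelMA, no group without an implant was analysed here, and strain, sex and age of the rats are not in the labels. The labels number the libraries of a group but do not say whether each came from its own animal, so p-values measure the spread between these libraries, which may be technical.

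Cst6 encodes cystatin E/M, a secreted inhibitor of the cysteine proteases legumain and cathepsin L that is best known from mouse and human skin, where it takes part in forming the cornified barrier. Cldn4 encodes claudin-4, a membrane protein of the tight junctions that seal epithelial cells to each other. Mt3 encodes metallothionein 3, a small cysteine-rich protein that binds zinc and copper and is best known from the brain, whereas its relatives Mt1 and Mt2A are made in most tissues and are induced by metals and glucocorticoids. Metallothionein genes lie in a cluster, and the metal-sensing factor MTF-1 acts on them through metal response elements, whose core reads TGCACNC or TGCGCNC.

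In the rn6 coordinates of the deposited table, whose headers do not state whether starts count from 0 or 1, Cst6 (ENSRNOG00000020455) lay at chr1:220727291-220729000 on the minus strand. Cldn4 (ENSRNOG00000001476) lay at chr12:24761209-24763005 on the plus strand, and Mt3 (ENSRNOG00000018958) at chr19:11324697-11326139 on the minus strand. Each was a single row of the table, no other row overlapped any of them, and they sat on different chromosomes.

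The promoters of Mt3 and of its neighbour Mt2A are shown because the levels of these genes moved in opposite directions with time, as described further on. The sequences are the 250 bases before each gene's start in RefSeq, in the GRCr8 build, at chr19:10856081-10856330 for Mt3 and chr19:10838709-10838958 for Mt2A, both on the minus strand and written 5′ to 3′. Capitals mark each match to TGCACNC or TGCGCNC on either strand.
Mt3: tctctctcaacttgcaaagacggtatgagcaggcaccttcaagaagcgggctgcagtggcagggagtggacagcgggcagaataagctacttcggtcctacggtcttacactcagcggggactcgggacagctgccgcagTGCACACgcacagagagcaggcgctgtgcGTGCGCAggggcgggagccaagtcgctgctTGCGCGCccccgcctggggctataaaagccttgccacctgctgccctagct
Mt2A: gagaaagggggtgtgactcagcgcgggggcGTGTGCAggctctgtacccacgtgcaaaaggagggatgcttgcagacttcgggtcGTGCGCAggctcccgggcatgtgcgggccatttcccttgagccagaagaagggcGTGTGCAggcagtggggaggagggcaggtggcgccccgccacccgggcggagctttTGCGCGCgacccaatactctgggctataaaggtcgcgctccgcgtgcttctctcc
The Mt3 promoter held 3 matches, 2 of them on the strand of the gene, and the Mt2A promoter held 4 matches, 1 of them on the strand of the gene. No matches overlapped in either sequence. At least 1 match was present in 20.6% of 33469 RefSeq promoters of this length (6883), and 3 or more in 1.17% (392). Each of these promoters also held the letters TATAAA once, as 12.9% of the promoters did on either strand. The metal response core was thus present upstream of both genes, and a match is a description of letters and not a measured binding site.

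Cst6 stood at 51.7, 35.3 and 81.1 FPKM in replicates 1, 2 and 3 of MFN+GelMA 4W, against 1.86, 0.744 and 1.45 FPKM in MFN+GelMA 2W. In GelMA it stood at 7.52, 6.82 and 10.5 FPKM at 4W, against 3.20, 7.31 and 1.21 FPKM at 2W. The 3 MFN+GelMA 4W libraries were far above all others, and the lowest of them was 3.37 times the highest of the other 9 libraries. By group mean MFN+GelMA 4W came first with 56.0 ± 23.2 FPKM, then GelMA 4W with 8.28 ± 1.94, GelMA 2W with 3.91 ± 3.11 and MFN+GelMA 2W with 1.35 ± 0.564 FPKM (SD, n = 3 each). GelMA 4W overlapped with GelMA 2W, and GelMA 2W overlapped with MFN+GelMA 2W, so these neighbours in the order were not separated by their libraries. GelMA 4W and MFN+GelMA 2W did not overlap.

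Cldn4 stood at 12.4, 9.83 and 15.8 FPKM in MFN+GelMA 4W, against 1.89, 0.486 and 0.472 FPKM in MFN+GelMA 2W. In GelMA it stood at 0.551, 0.863 and 1.48 FPKM at 4W, against 1.73, 2.19 and 0.996 FPKM at 2W. The lowest MFN+GelMA 4W library was 4.49 times the highest of the other 9, the widest gap among the 3 genes. The mean was 12.7 ± 3.01 FPKM in MFN+GelMA 4W, then 1.64 ± 0.601 in GelMA 2W, 0.965 ± 0.474 in GelMA 4W and 0.948 ± 0.813 in MFN+GelMA 2W (SD, n = 3 each). The lower 3 groups overlapped with one another, and no library in them exceeded 2.19 FPKM for Cldn4. Of the 9 libraries outside MFN+GelMA 4W only 4 reached 1 FPKM for Cldn4, compared with 8 for Cst6 and all 9 for Mt3.

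Mt3 was the most abundant of the 3 in every library. It stood at 297, 474 and 543 FPKM in MFN+GelMA 4W, against 31.6, 5.85 and 37.2 FPKM in MFN+GelMA 2W. In GelMA it stood at 65.8, 31.0 and 163 FPKM at 4W, against 9.01, 27.5 and 8.39 FPKM at 2W. The MFN+GelMA 4W libraries were again above all others, but the gap was narrower, the lowest being 1.82 times the highest of the other 9. The means were 438 ± 127 FPKM in MFN+GelMA 4W, 86.7 ± 68.6 FPKM in GelMA 4W, 24.9 ± 16.7 FPKM in MFN+GelMA 2W and 15.0 ± 10.8 FPKM in GelMA 2W (SD, n = 3 each). GelMA 4W overlapped with MFN+GelMA 2W, and MFN+GelMA 2W overlapped with GelMA 2W, while all GelMA 4W libraries were above all GelMA 2W libraries.

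**Figure D1:**
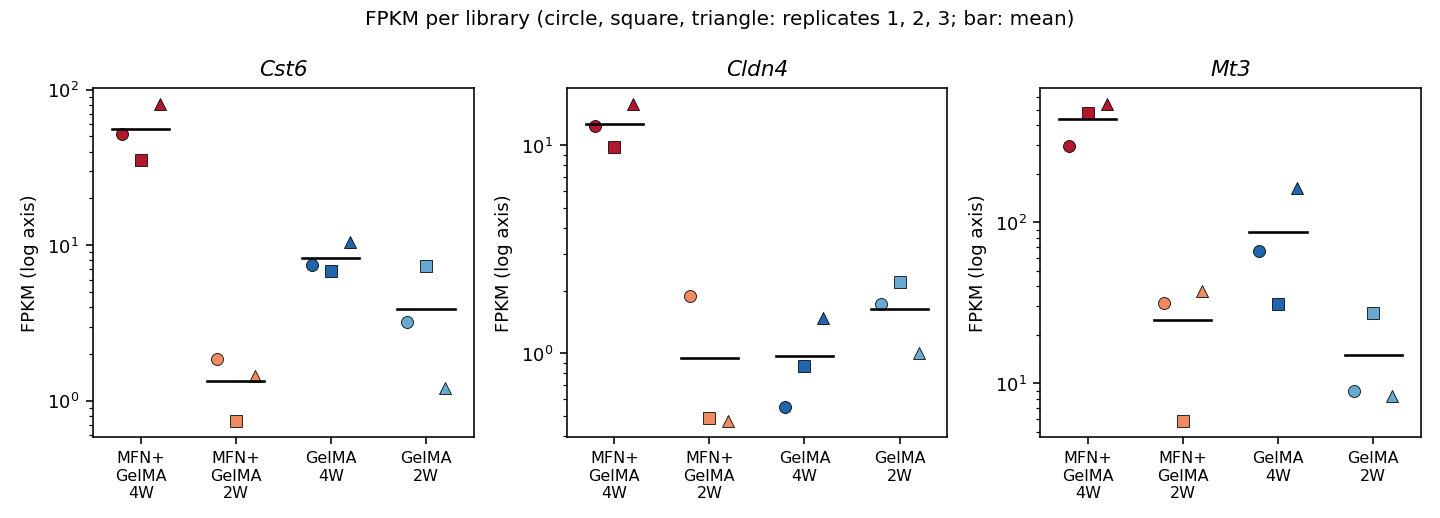
FPKM of Cst6, Cldn4 and Mt3 on logarithmic axes in the 12 libraries, by group; circles, squares and triangles are replicates 1, 2 and 3 and bars are group means. In each panel the 3 MFN+GelMA 4W points lie above all other 9 points, and Mt3 alone also has its GelMA 4W points above its GelMA 2W points.

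At 4W the ratio of the MFN+GelMA mean to the GelMA mean was 6.77 for Cst6, 13.1 for Cldn4 and 5.05 for Mt3. On the log2(FPKM + 1) scale of the limma fit the same difference was 2.56 ± 0.43 for Cst6, 2.80 ± 0.30 for Cldn4 and 2.59 ± 0.72 for Mt3 (SE). The pseudocount of 1 makes this scale understate the differences of genes with low values, Cldn4 above all. All MFN+GelMA 4W libraries were above all GelMA 4W libraries for each of the 3 genes, as they were for 27% of the 12270 genes tested, and 24.6% of those genes passed the test, 15.3% as higher and 9.27% as lower. By the size of this difference Cldn4 ranked 31, Mt3 45 and Cst6 47 among the tested genes. Since the same MFN+GelMA 4W libraries were used to choose the 3 genes, nothing is read from these ranks.

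The difference between 4W and 2W in MFN+GelMA, which chose the genes, was 4.55 ± 0.43 for Cst6, 2.87 ± 0.30 for Cldn4 and 4.38 ± 0.72 for Mt3 (log2(FPKM + 1), SE). These were the largest, the 15th largest and the 2nd largest increases among the tested genes, of which 11.2% passed the test as higher at 4W and 19.3% in either direction, and 20.1% had all MFN+GelMA 4W libraries above all MFN+GelMA 2W libraries. In FPKM the 4W mean was 41.5 times the 2W mean for Cst6, 13.4 times for Cldn4 and 17.6 times for Mt3. For Mt3 the value leaned on MFN+GelMA 2W replicate 2, the lowest of all libraries at 5.85 FPKM, and without that library the difference was 3.59. That library also carried skeletal muscle RNA, with Acta1 (skeletal muscle actin) at 275 FPKM and at most 0.662 FPKM in the other 11 libraries.

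At 2W the libraries of both materials overlapped for all 3 genes. The MFN+GelMA mean over the GelMA mean was 0.346 for Cst6, 0.579 for Cldn4 and 1.66 for Mt3. On the log2(FPKM + 1) scale the differences were −0.89 ± 0.43, −0.49 ± 0.30 and 0.56 ± 0.72 for Cst6, Cldn4 and Mt3 (SE). Among all tested genes 0.497% passed the test in this comparison and 9.7% had all MFN+GelMA 2W libraries above all GelMA 2W libraries.

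In GelMA without microfibre, the comparison that the choice did not use, none of the 3 genes passed the limma test between 4W and 2W after adjustment, and 2 had an unadjusted p under 0.05. The background of this comparison was low, with 2.23% of the tested genes called (274), 0.497% as higher at 4W (61) and 1.74% as lower. Mt3 came nearest, with a difference of 2.35 ± 0.72 (SE, log2(FPKM + 1), 95% interval 0.78 to 3.92), an unadjusted p of 0.00712 and a Benjamini-Hochberg adjusted p of 0.116 in limma. Its increase ranked 6 among all tested genes, and the mean of 86.7 FPKM at 4W was 5.80 times the 2W mean of 15.0 FPKM. All 3 GelMA 4W libraries were above all 3 GelMA 2W libraries, as they were for 10.3% of the tested genes. Leaving out 3 unusual libraries (MFN+GelMA 2W replicate 2 with muscle RNA, GelMA 4W replicate 2 with fat RNA and GelMA 2W replicate 3 with few endothelial transcripts), the Mt3 difference was 2.63 ± 0.52 and passed in limma at an adjusted p of 0.0294. That fit compared GelMA 4W replicates 1 and 3 with GelMA 2W replicates 1 and 2. The GelMA libraries left out had the lowest Mt3 of their groups, at 31.0 FPKM at 4W and 8.39 FPKM at 2W. The pass thus depends on which libraries were kept, and nothing is read from it. Over leaving out 1 library at a time the adjusted p of Mt3 in limma ran from 0.0650 to 0.305.

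Cst6 differed by 1.10 ± 0.43 in the same comparison (95% interval 0.16 to 2.04), with a limma unadjusted p of 0.0252 and an adjusted p of 0.205. Its GelMA 4W libraries were close together, whereas 1 of the GelMA 2W libraries, replicate 2 at 7.31 FPKM, lay inside their range. Cldn4 differed by −0.42 ± 0.30 (95% interval −1.09 to 0.24), with a limma unadjusted p of 0.187 and an adjusted p of 0.490. The sign of the Cldn4 difference was thus opposite to that of Cst6 and Mt3. The change with time in MFN+GelMA minus that in GelMA was 3.45 for Cst6, 3.29 for Cldn4 and 2.04 for Mt3 on the log2(FPKM + 1) scale, given without a test because it contains the libraries that chose the genes. Of all tested genes 14.1% passed for that difference between the materials.

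**Figure D2:**
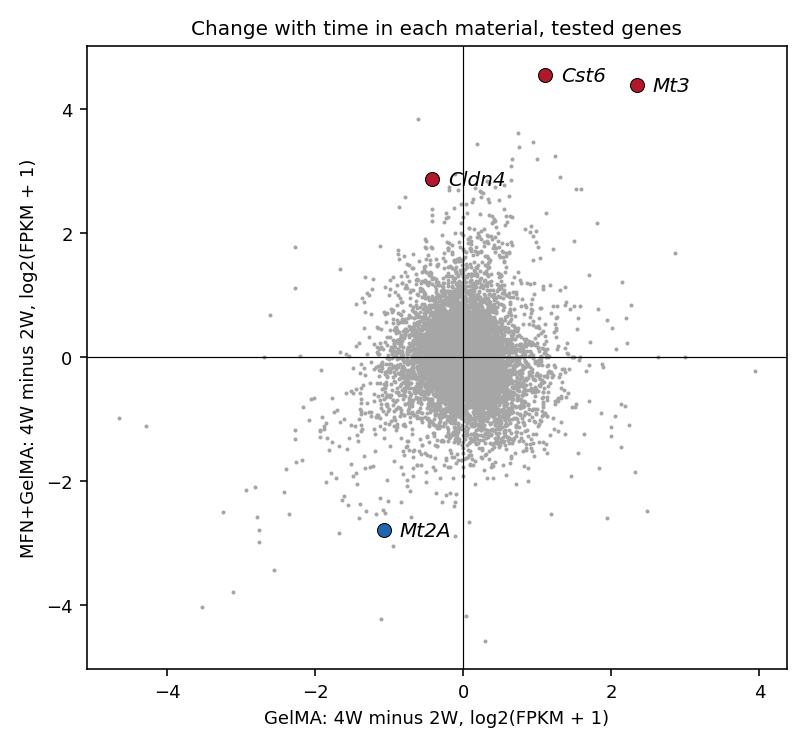
Change from 2W to 4W in MFN+GelMA (vertical, log2(FPKM + 1)) against the change in GelMA (horizontal, log2(FPKM + 1)) for the 12270 tested genes; red points are Cst6, Cldn4 and Mt3, and the blue point is Mt2A. Cst6 and Mt3 lie to the right of 0 at 1.10 and 2.35, Cldn4 lies to the left at −0.42, and Mt2A lies at −1.07 and −2.79, opposite Mt3 in both directions; the axes share the zero line but no libraries.

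The 3 genes rested on different numbers of fragments, since FPKM divides by transcript length. Estimated fragments per library, the deposited count-like value divided by what 1 fragment was worth in that library, ran from 296 to 758 for Cst6 in MFN+GelMA 4W and from 6 to 15 in MFN+GelMA 2W. For Cldn4 they ran from 210 to 379 in MFN+GelMA 4W, and from 10 to 46 over all the other 9 libraries. For Mt3 they ran from 794 to 1605 in MFN+GelMA 4W, and from 15 to 98 in MFN+GelMA 2W. In GelMA they ran from 62 to 97 for Cst6 at 4W and from 10 to 60 at 2W. For Mt3 in GelMA they ran from 90 to 483 at 4W and from 22 to 71 at 2W. Low values of all 3 genes therefore rested on few fragments, those of Cst6 and Cldn4 on the fewest. Small differences among the lower groups were not resolved by these libraries, and the part of depth in their spread was not tested. Within MFN+GelMA 4W the coefficient of variation was 41.4% for Cst6, 23.7% for Cldn4 and 29.0% for Mt3.

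Outside MFN+GelMA 4W the 3 genes were not all closely correlated. Over the other 9 libraries Cst6 and Mt3 had a Pearson r of 0.739 and a Spearman rho of 0.717 on log2(FPKM + 1). Cst6 and Cldn4 had an r of 0.337 and a rho of 0.367, and Cldn4 and Mt3 an r of 0.0958 and a rho of −0.05. These are descriptions over libraries that share groups and tissue composition, with no test. Cldn4 was at most 2.19 FPKM in these 9, so its low values of r cannot show that it varied apart from Cst6 and Mt3. GelMA 4W replicate 3 was the highest of the 9 for both Cst6 and Mt3, whereas GelMA 2W replicate 2 was the highest for Cldn4.

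The other cystatins were followed to see how Cst6 stood in its family. Of 17 further cystatin-family genes measured, 12 were listed at 0 in every library and 3 were tested, namely Cst3 (cystatin C, a secreted inhibitor made by most cells), Cst7 (cystatin F, of leukocyte lysosomes) and Cstb (cystatin B, a cytosolic inhibitor). All 3 rose in MFN+GelMA 4W against MFN+GelMA 2W, where 11.2% of all tested genes did, with a list median of 0.77 against 0.01 over all tested genes, and none passed in GelMA by limma, where 1 had an unadjusted p under 0.05. Cst7 stood at 75.9, 75.6 and 77.7 FPKM in MFN+GelMA 4W, against 20.9, 24.6 and 30.4 FPKM in GelMA 4W, and the groups were far apart. This difference of 1.57 ± 0.16 (SE, log2(FPKM + 1)) had a limma adjusted p of 8.3e-05. Cstb exceeded its GelMA 4W level in MFN+GelMA 4W as well, by 0.89 ± 0.14 (limma adjusted p 0.00103). Cst3 did not pass there, with a difference of −0.06 ± 0.14 (limma adjusted p 0.790).

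Per kilobase of transcript Cst6 remained a minor cystatin. Its FPKM was 4.31%, 2.79% and 5.47% of that of Cst3 in the 3 MFN+GelMA 4W libraries, against 0.243%, 0.0841% and 0.215% in MFN+GelMA 2W. In GelMA the share was 0.528%, 0.534% and 0.746% at 4W and 0.321%, 0.620% and 0.137% at 2W. At 56.0 FPKM in MFN+GelMA 4W, Cst6 was close in level to Cst7, whose mean was 76.4 FPKM.

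The proteases that cystatin E/M inhibits were measured at high levels in all groups. Lgmn (legumain) averaged 896 FPKM in MFN+GelMA 4W and was higher there than in GelMA 4W by 0.79 ± 0.19 (limma adjusted p 0.0107), while Ctsl (cathepsin L) averaged 683 FPKM and differed by −0.53 ± 0.21, which did not pass (limma adjusted p 0.0942). Between 4W and 2W in MFN+GelMA neither passed, with differences of 0.09 ± 0.19 for Lgmn and −0.65 ± 0.21 for Ctsl (limma adjusted p 0.778 and 0.0547). Ctsb (cathepsin B), the most abundant of these proteases, differed by 0.06 ± 0.18 between the materials at 4W (limma adjusted p 0.839). Among the 10 cysteine cathepsins and legumain 4 rose and 1 fell in MFN+GelMA 4W against GelMA 4W, where 15.3% of all tested genes rose and 9.27% fell, with a list median of 0.10 against 0.05 over all tested genes. Ctsk (cathepsin K, the collagen-degrading protease of osteoclasts) was higher by 1.70 ± 0.29 and Ctsz by 1.20 ± 0.14, while Ctsh was lower by a difference of −0.99 ± 0.14 (limma adjusted p 0.00145, 0.00019 and 0.000475). In GelMA 4W against GelMA 2W 3 members fell, Ctss, Ctsz and Lgmn, where 1.74% of all tested genes fell. Lgmn lost its call when any 1 of 9 libraries was left out (limma adjusted p up to 0.186 over all alternatives). Ctss lost its call without GelMA 4W replicate 1, Ctsz without GelMA 4W replicate 1 or GelMA 2W replicate 1, and all 3 with only the compared libraries in the fit (limma adjusted p up to 0.0871 for Ctss and 0.0912 for Ctsz).

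Cldn4 was the claudin with the highest mean FPKM in MFN+GelMA 4W, at 12.7 FPKM, whereas Cldn5 had the highest mean in GelMA 4W. Of the 21 other claudins measured, 16 were under 1 FPKM in every library, 8 of them listed at 0, and 5 were tested. Cldn1 (a claudin of epidermis and other epithelia) rose in MFN+GelMA 4W against GelMA 4W and against MFN+GelMA 2W, though at low levels. It stood at 1.82, 2.28 and 2.14 FPKM in MFN+GelMA 4W, against 0.181, 0.840 and 0.759 FPKM in GelMA 4W, with no overlap. The difference was 0.97 ± 0.27 (limma adjusted p 0.0201), and it lost its call without MFN+GelMA 4W replicate 2 or 3 or GelMA 4W replicate 1, reaching an adjusted p of 0.0890 at most. Against MFN+GelMA 2W the Cldn1 difference was 0.90 ± 0.27 (limma adjusted p 0.0365), and it lost its call when any 1 of 5 libraries was left out. Cldn12, Cldn15 and Cldn22 did not pass in any comparison, nor did Cldn5, the claudin of endothelial cells, which differed by −1.65 ± 0.64 between the materials at 4W (limma adjusted p 0.0808).

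Among the molecules that claudins work with at the tight junction, the calls were about as frequent as among all genes. Of 14 tested partner genes 2 rose and 2 fell in MFN+GelMA 4W against GelMA 4W, where 15.3% of all tested genes rose and 9.27% fell, and the same genes were called in the same directions in MFN+GelMA 4W against MFN+GelMA 2W, a comparison that shares the MFN+GelMA 4W libraries and in which Tjp3 and Pard3 lost their calls when any 1 of 5 and any 1 of 2 libraries was left out (limma adjusted p up to 0.0829 and 0.0706). The list medians were −0.43 and −0.34, against 0.05 and 0.01 over all tested genes. At an unadjusted p under 0.05 in limma 2 were higher and 6 lower between the materials at 4W, and 2 higher and 4 lower with time in MFN+GelMA. Leaving out 1 library at a time, 2 to 6 were called as lower between the materials at 4W and 2 as higher. Ocln (occludin, a membrane protein of the junction) stood at 13.0, 11.2 and 11.6 FPKM in MFN+GelMA 4W, against 5.38, 4.40 and 7.44 FPKM in GelMA 4W. These libraries did not overlap, and the difference was 0.97 ± 0.18 (limma adjusted p 0.00235). Tjp3 (the scaffold protein ZO-3) was higher by 0.90 ± 0.20, while the scaffold Mpdz and the polarity protein Pard3 were lower, with differences of −0.84 ± 0.16 and −0.86 ± 0.16 (limma adjusted p 0.00613, 0.00315 and 0.00233). None of the 14 passed in limma in GelMA 4W against GelMA 2W, where 2.23% of all tested genes did, and 1 had an unadjusted p under 0.05.

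Because Cst6 and Cldn4 are best known from epithelia, epithelial markers were read beside them. The epithelial adhesion genes Epcam and Cdh1 reached at most 0.362 and 0.392 FPKM in any of the 12 libraries, the basal keratin Krt5 was listed at 0 in all, and Krt14 was at most 0.000148 FPKM. Of 19 simple epithelium markers 16 were under 1 FPKM in every library, and their summed FPKM was 21.2 to 22.7 in MFN+GelMA 4W, against 13.3 to 17.3 in MFN+GelMA 2W, 13.7 to 16.2 in GelMA 4W and 14.9 to 18.7 in GelMA 2W. Most of that sum was St14 (matriptase, a membrane serine protease), which was 18.0 to 19.5 FPKM in MFN+GelMA 4W, against 9.09 to 13.9 FPKM in GelMA 4W, higher by 0.69 ± 0.16 (limma adjusted p 0.00812). The 24 keratinocyte and hair follicle markers summed to 10.9 to 15.4 FPKM in MFN+GelMA 4W, and 7 of them were listed at 0 in every library. In GelMA 4W the sums of replicates 1, 2 and 3 were 8.08, 20.2 and 8.40 FPKM. Replicates 1 and 3 were thus below every MFN+GelMA 4W library, and replicate 2, the library with fat RNA, was above them all. At 2W the sums were 13.0 to 17.0 FPKM in MFN+GelMA and 10.8 to 14.3 FPKM in GelMA. Between the materials at 4W 2 of the 5 keratinocyte markers tested rose in limma and none fell, where 15.3% of all tested genes rose. They were Pkp1 by 0.73 ± 0.20 and Sbsn by 0.68 ± 0.22 (limma adjusted p 0.0223 and 0.043). Their calls were lost when any 1 of 4 and any 1 of 7 libraries was left out. Epcam, Cdh1, Krt5 and Krt14 were thus at or near 0 in the libraries where Cst6 and Cldn4 were highest, whereas the simple keratin Krt8 reached 1.08 FPKM there.

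Other marker lists did move with the 3 genes. The 12 osteoclast and giant cell markers summed to 1687 to 2286 FPKM in MFN+GelMA 4W, against 362 to 518 FPKM in MFN+GelMA 2W, 294 to 798.5 FPKM in GelMA 4W and 288 to 332 FPKM in GelMA 2W. Of the 10 tested, 8 rose in MFN+GelMA 4W against GelMA 4W in limma, where 15.3% of all tested genes did, and none fell, also at an unadjusted p under 0.05. GelMA 4W replicate 3, the library with the highest Mt3 outside MFN+GelMA 4W, also had the highest sum among those 9. The 13 macrophage markers summed to 17989 to 18495 FPKM in MFN+GelMA 4W, against 11312 to 12535 FPKM in MFN+GelMA 2W, 6299.9 to 10921 FPKM in GelMA 4W and 9739 to 11736 FPKM in GelMA 2W, with 7 of 13 rising in MFN+GelMA 4W against GelMA 4W in limma and none falling, also at an unadjusted p under 0.05. Most of the macrophage sum was Lyz2 (lysozyme), at 12539 to 13837 FPKM in MFN+GelMA 4W and at most 8267 FPKM elsewhere. Without Lyz2 the sum was 4658 to 5449 FPKM in MFN+GelMA 4W, against 4044 to 4846 FPKM in MFN+GelMA 2W, 3040 to 3864 FPKM in GelMA 4W and 4163 to 5588 FPKM in GelMA 2W, so that only GelMA 4W was below every MFN+GelMA 4W library. Between 4W and 2W in MFN+GelMA 5 of the 13 rose in limma and none fell, where 11.2% of all tested genes rose and 8.11% fell. Lyz2, among those 5, lost its call when any 1 of 9 libraries was left out (limma adjusted p up to 0.149 over all alternatives). At an unadjusted p under 0.05 in limma 7 of the 13 were higher and 3 were lower. The 7 endothelial markers ran the other way, at 129.6 to 161 FPKM in MFN+GelMA 4W, against 287 to 374 FPKM in MFN+GelMA 2W, 234 to 361 FPKM in GelMA 4W and 127 to 356 FPKM in GelMA 2W. The part of these cell types in the levels of Cst6, Cldn4 and Mt3 was not tested, and in bulk tissue fewer cells of a type and less RNA per cell cannot be told apart.

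**Figure D3:**
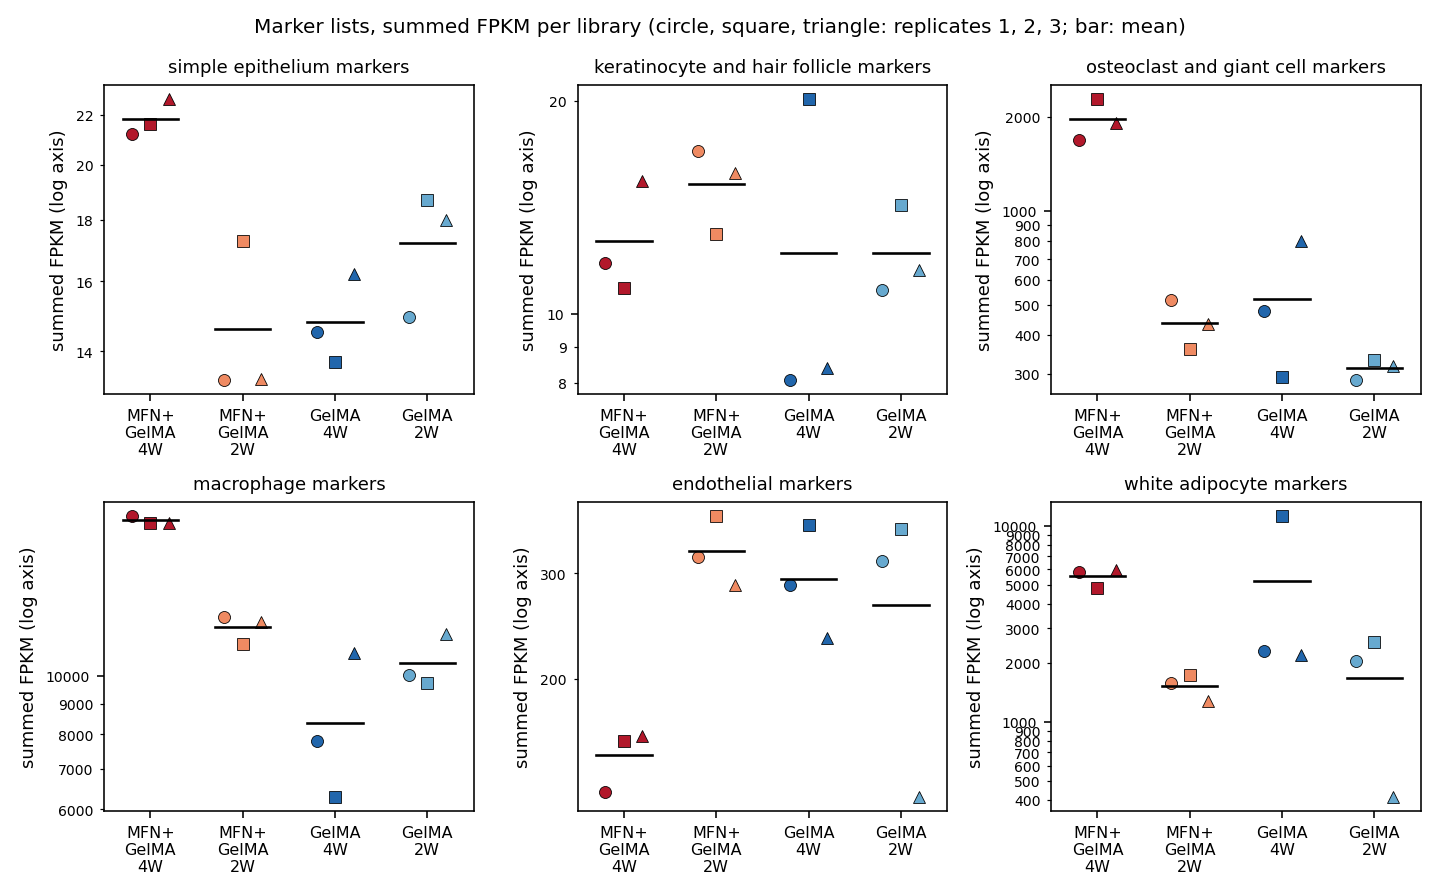
Summed FPKM of 6 marker lists per library on logarithmic axes whose ranges differ between panels, by group; circles, squares and triangles are replicates 1, 2 and 3 and bars are group means. The osteoclast and giant cell sums of MFN+GelMA 4W (1687 to 2286) and the macrophage sums (17989 to 18495, mostly Lyz2) lie above all other libraries, though without Lyz2 the macrophage sums overlap with both 2W groups, and the simple epithelium panel spans only 13.3 to 22.7.

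Fat markers did not pass between the materials at 4W, where 0 of 6 tested were called in limma, as were 24.6% of all tested genes. At an unadjusted p under 0.05 in limma 4 were lower in MFN+GelMA 4W. The list median was −2.93 against 0.05 over all tested genes. The white adipocyte sum was 4805 to 5944 FPKM in MFN+GelMA 4W, against 2189 to 11277 FPKM in GelMA 4W, but nearly all of it in MFN+GelMA 4W was Fabp4 (a fatty acid binding protein that macrophages also make), at 4786 to 5922 FPKM. Adipoq (adiponectin, made by fat cells) was 1.68 to 10.4 FPKM there, against 2118 FPKM in GelMA 4W replicate 2 and 18.0 and 32.0 FPKM in the other 2 GelMA 4W libraries, with no overlap. The Adipoq difference was −4.05 ± 1.59 (SE, log2(FPKM + 1), limma adjusted p 0.0854), and with so wide an SE the missing call does not show equal levels. GelMA 4W replicate 2 had the lowest Cst6 and the lowest Mt3 of its group, and the part of its fat RNA in those values was not tested.

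Among the metallothioneins Mt3 and its neighbour Mt2A ran in opposite directions. Mt2A, which lay 15957 bases from Mt3 in the table, stood at 32.8, 37.8 and 38.9 FPKM in MFN+GelMA 4W, against 210.5, 138 and 588 FPKM in MFN+GelMA 2W. In GelMA it stood at 66.3, 100.5 and 69.2 FPKM at 4W, against 149.6, 172 and 171 FPKM at 2W. Every 4W library was below every 2W library in both materials. In MFN+GelMA Mt2A fell by 2.79 ± 0.40 between 4W and 2W (limma adjusted p 0.000925), and in GelMA the difference of −1.07 ± 0.40 did not pass (limma adjusted p 0.185). Between the materials at 4W the Mt2A difference was −1.07 ± 0.40 (limma adjusted p 0.0709), and at 2W it was 0.65 ± 0.40 (limma adjusted p 0.484).

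The balance of Mt3 and Mt2A therefore differed widely between groups. Mt3 FPKM divided by Mt2A FPKM was 9.06, 12.5 and 14.0 in MFN+GelMA 4W, against 0.150, 0.0424 and 0.0633 in MFN+GelMA 2W. In GelMA it was 0.993, 0.308 and 2.36 at 4W, against 0.0602, 0.160 and 0.0490 at 2W. Mt3 was the more abundant of the pair in all 3 MFN+GelMA 4W libraries and in GelMA 4W replicate 3, and in no other library. The ratio of each 4W library was above that of each 2W library in both materials. These ratios contain the libraries that chose Mt3 and are given without a test.

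**Figure D4:**
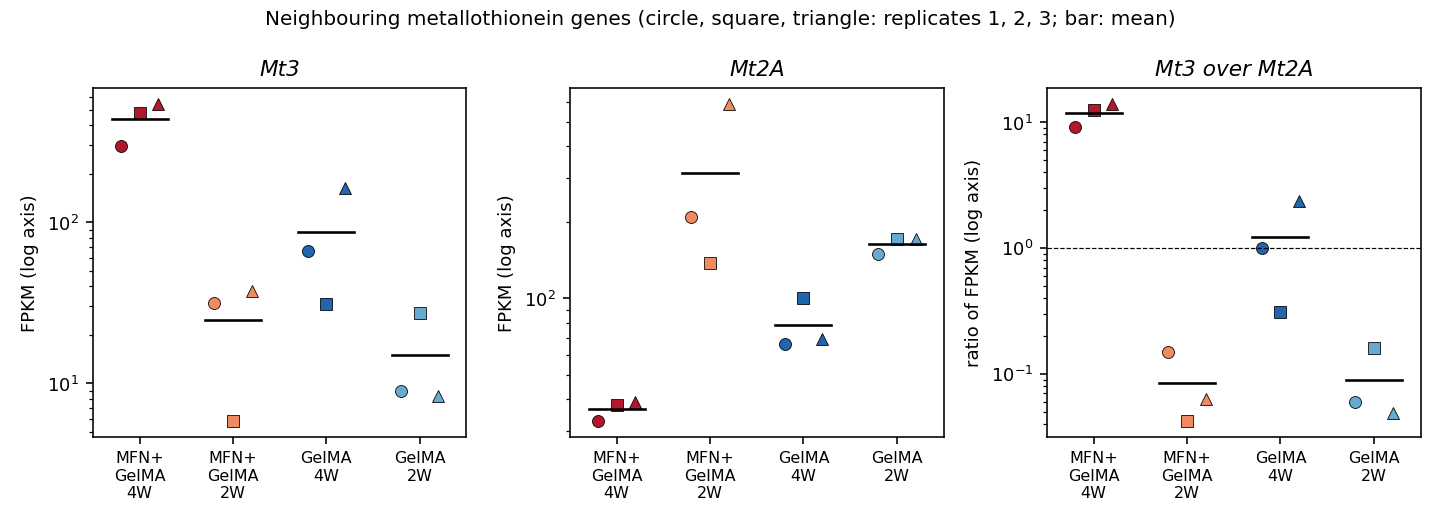
FPKM of Mt3 and Mt2A and the ratio of Mt3 to Mt2A on logarithmic axes in the 12 libraries, by group; circles, squares and triangles are replicates 1, 2 and 3, bars are group means, and the dashed line marks equal FPKM. The ratio is 9.06 to 14.0 in MFN+GelMA 4W, 0.308 to 2.36 in GelMA 4W, and at most 0.160 in every 2W library.

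The row named Mt1 also fell in MFN+GelMA, by 1.67 ± 0.35 between 4W and 2W (limma adjusted p 0.00734), and Mt1m differed by −0.75 ± 0.53, which did not pass (limma adjusted p 0.367). Mt1 stood at 5.96, 7.61 and 7.70 FPKM in MFN+GelMA 4W, against 22.0, 17.7 and 37.6 FPKM in MFN+GelMA 2W, and the groups did not overlap. Neither row passed in any other comparison. In the table the Mt1 row lay on chromosome 17 and the Mt1m row on chromosome 20, away from Mt3 and Mt2A. RefSeq in GRCr8 places Mt1 on chromosome 19, as it does Mt3 and Mt2A, so the row may not stand for the Mt1 gene of the cluster. How reads shared by near-identical metallothionein copies were divided is not given in the sources used here, so these levels are uncertain. Mt4, a metallothionein of stratified epithelia and the nearest neighbour of Mt3 at 13627 bases, was listed at 0 in all 12 libraries. Thus 0 of the 3 other tested metallothioneins rose in limma in any of the 4 comparisons (1 was higher at an unadjusted p under 0.05, in MFN+GelMA 2W against GelMA 2W), and 2 fell in MFN+GelMA 4W against MFN+GelMA 2W, where 8.11% of all tested genes fell.

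**Figure D5:**
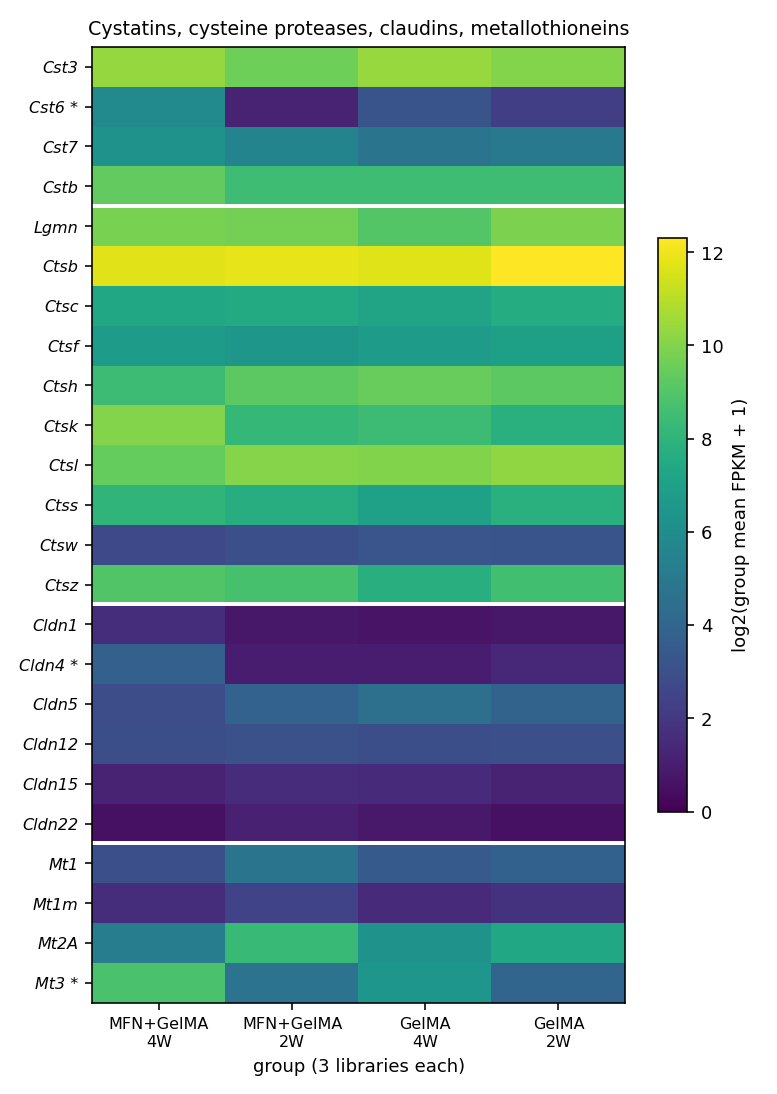
Group means on the log2(FPKM + 1) scale (colour) for the tested cystatins, cysteine cathepsins with legumain, claudins and metallothioneins, in blocks from top to bottom, with the 4 groups in columns; asterisks mark Cst6, Cldn4 and Mt3. Cst6, Cldn4 and Mt3 are brightest in the MFN+GelMA 4W column, whereas Mt2A is darkest there.

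Genes that handle zinc and copper, the metals that Mt3 binds, were also measured. Of 22 tested, 6 rose and 1 fell in MFN+GelMA 4W against GelMA 4W, where 15.3% of all tested genes rose and 9.27% fell, with a list median of 0.09 against 0.05 over all tested genes. In MFN+GelMA 4W against MFN+GelMA 2W 5 rose and 2 fell, where 11.2% and 8.11% of all tested genes did. Slc30a1, the zinc exporter of the plasma membrane, stood at 33.7, 28.9 and 28.8 FPKM in MFN+GelMA 4W, against 9.63, 12.02 and 15.5 FPKM in GelMA 4W. The difference of 1.25 ± 0.16 had a limma adjusted p of 0.000273. The copper importer Slc31a1 was higher by 1.03 ± 0.15, its relative Slc31a2 by 1.13 ± 0.15 and the copper pump Atp7a by 1.08 ± 0.17 (limma adjusted p 0.000595, 0.000381 and 0.000857). In GelMA 4W against GelMA 2W 1 of the 22, the zinc and manganese importer Slc39a8, fell in limma and none rose, with 1 higher at an unadjusted p under 0.05. That Slc39a8 call was lost without GelMA 4W replicate 1 or GelMA 2W replicate 1 (limma adjusted p up to 0.110). Slc39a8 was also among the 2 that fell with time in MFN+GelMA, a call kept whichever 1 library was left out.

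The genes lying nearest to each of the 3 were followed too. Cst6 had 11 genes within 100 kb, and of the nearest 4 Catsper1 was listed at 0 while Banf1 and Sart1 did not pass in any comparison. Eif1ad differed by 0.42 ± 0.11 between the materials at 4W (limma adjusted p 0.0155), a call lost without MFN+GelMA 4W replicate 3 or GelMA 4W replicate 1. Cldn4 had 6 genes within 100 kb, of which Wbscr28 was listed at 0 and Wbscr27, Abhd11 and Stx1a did not pass. Mt3 had 7, and of its nearest 4 only Mt2A passed in any comparison, in the direction opposite to Mt3.

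The genes whose levels followed each of the 3 most closely over the 12 libraries were ranked by Pearson r on log2(FPKM + 1) among 10043 candidates with a mean of at least 2 FPKM. For Cst6 the 8 nearest were Tprg1l, Dapk1, Heph, Cd59, Wfikkn1, Pxdc1, Otud1 and Lrmp, with r from 0.946 to 0.970. For Cldn4 the 8 included Pnpla7, Egr2, Dapp1, Tnfsf8, Nrp1, Atf3 and Sash3, with r from 0.964 to 0.984 over the 8. For Mt3 they were Atp6v0d2, Sctr, Meis3, Prrt1, Pea15, Hr, Rab40c and Atox1, with r from 0.940 to 0.965. No gene appeared on more than 1 of these lists. All 24 had their MFN+GelMA 4W libraries above the other 9, as 11.4% of the tested genes did. Over the other 9 libraries r was lower, at 0.776 to 0.883 for the genes near Cst6 and 0.605 to 0.877 for those near Cldn4. For those near Mt3 it was 0.851 to 0.947, the smallest loss. The genes were picked over all 12 libraries, these 9 among them, so the values over 9 are no separate support.

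Some of these genes have known roles. Heph encodes hephaestin, a copper-containing iron oxidase, and Egr2 and Atf3 encode transcription factors that are induced early after stimulation. Atp6v0d2, a subunit of the vacuolar proton pump of osteoclasts that also belongs to the osteoclast and giant cell list, stood at 159.5, 122 and 135 FPKM in MFN+GelMA 4W and 21.4, 13.9 and 18.4 FPKM in MFN+GelMA 2W. In GelMA it stood at 32.3, 17.2 and 60.5 FPKM at 4W and 11.1, 18.4 and 9.54 FPKM at 2W, and its highest library outside MFN+GelMA 4W was GelMA 4W replicate 3, as for Mt3. Atox1, the chaperone that carries copper to Atp7a, stood at 126, 170.0 and 166 FPKM in MFN+GelMA 4W, against 96.6, 94.2 and 113 FPKM in GelMA 4W, with no overlap. Tnfsf8 (the ligand of CD30) stood at 8.22 to 9.25 FPKM in MFN+GelMA 4W and at most 1.31 FPKM in the other 9 libraries. Atp6v0d2 and Tnfsf8 were picked for following Mt3 and Cldn4 over these same libraries. Their likeness to Mt3 and Cldn4, the shared highest library included, was thus selected, and nothing is read from it.

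Across the series the libraries held an estimated 11405128 to 14043170 fragments and 11323 to 11773 genes of at least 1 FPKM, and the mitochondrial genes took 17.8% to 32.7% of the summed FPKM. The 9 skeletal muscle fibre markers summed to 891 FPKM in MFN+GelMA 2W replicate 2 and to 10.5 to 25.8 FPKM in the other 11 libraries. Most of the sum in those 11 was Tnnt3 (a fast troponin T), at 9.34 to 23.8 FPKM, and the other 8 markers, Acta1 among them, together reached 2.72 FPKM at most.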

How the data were processed

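TRIzol extraction, Ribo-Zero depletion of ribosomal RNA and the TruSeq stranded kit were used per the labels' protocols. The submitters' processing notes name cutadapt 1.9.3, HISAT2, Cuffdiff and rn6; the sources used here give no other version, no annotation and no strand setting. The authors deposited FPKM, scaled to transcript length and library, for 22062 rows. A deposited count-like signal beside it is not whole, although 99.3% to 99.5% of its positive values in each library were multiples of 1 step (0.875 to 1.08, tolerance 0.05). Dividing by that step gave the estimated fragments. Rows sharing a symbol were summed, and a gene was tested if 3 of the 12 libraries or more reached 1 FPKM.

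Tests used limma 3.58.1 (R 4.3.3) on log2(FPKM + 1) with a mean for each group, all 12 libraries in the fit and a trend on intensity (8 residual, 3.28 prior degrees of freedom). They were two-sided and adjusted by Benjamini-Hochberg over all genes tested, with a threshold of 0.05, and the procedure was tested on simulated data. The 3 genes, the lists and the naming rule were chosen with earlier results of these data known. The rule named the 8 nearest genes by r (1 of those near Cldn4 is not reported here), all metallothioneins, up to 5 genes a list by p between the materials at 4W, the 4 nearest neighbours, and Lgmn, Ctsl and Ctsb. Epcam, Cdh1, Krt5, Krt14, Acta1, Adipoq, Fabp4 and Slc39a8 were named after their values were seen. The closing section gives the alternatives tried.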

Additional observations from a re-analysis of the deposited data

Results flagged for a closer look

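Among the named genes other than Cst6, Cldn4 and Mt3, those listed here changed differently with time in the materials, by the interaction in limma (Benjamini-Hochberg adjusted p under 0.05, as for 14.1% of all tested genes). Each value is the change between 4W and 2W in MFN+GelMA minus that in GelMA on the log2(FPKM + 1) scale. Among the cystatins Cst7 had 0.97 and Cstb 0.91. Among the cysteine proteases Ctss had 1.15, Ctsz 1.06, Lgmn 0.95 and Ctsh −0.98. For Ctss, Ctsz and Lgmn the change with time was 0.36, 0.22 and 0.09 in MFN+GelMA, against −0.78, −0.84 and −0.86 in GelMA. At the tight junction Ocln had 1.05 and Tjp3 0.98, while Mpdz had −0.99 and Pard3 −0.76. Among the metal-handling genes Slc30a1 had 1.13, Atp7a 0.94, Slc31a1 0.91 and Slc31a2 0.91. The epithelial protease St14 had 0.92. Of the osteoclast and giant cell markers Ocstamp had 2.55, Tnfrsf11a 1.25 and Acp5 1.21. Of the macrophage markers Ptprc had 1.76, Laptm5 1.27, Fcer1g 1.18 and Csf1r 1.10. Fcer1g changed with time by 0.34 in MFN+GelMA and by −0.84 in GelMA. The endothelial genes Esam and Kdr had −1.90 and −1.74. Mt2A, at −1.71 ± 0.56 (SE), did not pass (limma adjusted p 0.0643). Leaving out 1 library at a time, 14 of the 24 calls were kept throughout and 10 were not. Slc31a2 lost its call without GelMA 4W replicate 1, Ocln without that library or MFN+GelMA 4W replicate 1, Atp7a without that library or MFN+GelMA 4W replicate 2, and St14 without that library or MFN+GelMA 4W replicate 3. Acp5, Tjp3, Esam, Kdr, Lgmn and Pard3 lost it without any 1 of 8 to 11 libraries, with limma adjusted p up to 0.170 over all alternatives. Groups of 3 libraries were too small to test for a library that stood apart.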

How the results depend on the processing

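Over 101 calls of genes from the lists and neighbours, with Atox1, Atp6v0d2 and Slc39a8, no direction reversed in 2216 refits: 1983 kept the call and 233 lost it, with the cause not tested. Count tests (edgeR and DESeq2) were not run, because the deposited count-like values were not whole numbers. With a pseudocount of 0.1 the difference between 4W and 2W in MFN+GelMA was 5.28 for Cst6 and 3.85 for Cldn4, that between MFN+GelMA and GelMA was 3.65 at 4W and −0.93 at 2W for Cldn4, and with a pseudocount of 0.5 the time difference of Cldn4 in MFN+GelMA was 3.30; a smaller pseudocount compresses low values less. Leaving out the 3 unusual libraries named above, the Mt3 difference in GelMA was 2.63, and 374 genes were called between the materials at 2W, against 61 with all libraries. With only the 6 libraries compared in each fit, 4 genes were called between 4W and 2W in GelMA (274 with all libraries) and 9 between the materials at 2W. The 6 lists of related genes held 3 tested cystatins, 10 cysteine proteases, 5 claudins, 14 tight junction partners, 3 metallothioneins and 22 metal-handling genes. Over these lists 13 genes rose and 7 fell with time in MFN+GelMA, where 11.2% of all tested genes rose and 8.11% fell. With only the compared libraries 11 fell, and 13 fell without the 3 libraries. Between the materials at 4W 15 rose and 4 fell, where 15.3% of all tested genes rose and 9.27% fell. With quantile normalization 8 fell, with only the compared libraries 8, and without the 3 libraries 10. The shares of all genes by direction under these alternatives are not given here, so these list counts are not set against them.

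Leaving out 1 library at a time, the time difference in MFN+GelMA ran from 4.25 to 4.84 for Cst6, 2.70 to 3.19 for Cldn4 and 3.59 to 4.83 for Mt3, and in GelMA from 0.63 to 1.59, −0.61 to −0.27 and 1.74 to 2.92 for the same genes. The difference between the materials ran from 2.26 to 2.85, 2.64 to 2.99 and 2.02 to 3.20 at 4W, and from −1.36 to −0.40, −0.81 to −0.32 and 0.11 to 1.35 at 2W. Genes called ran from 1463 to 2628 with time in MFN+GelMA (lowest without MFN+GelMA 4W replicate 1), from 9 to 290 with time in GelMA (9 when GelMA 4W replicate 1 was left out, 27 when it was GelMA 2W replicate 1, 84 when it was GelMA 2W replicate 2), from 2004 to 3317 between the materials at 4W and from 21 to 160 at 2W. In the lists, 8 to 13 rose and 5 to 10 fell with time in MFN+GelMA, and 13 to 16 rose and 3 to 10 fell between the materials at 4W. The replicate numbers did not pair the libraries (18 correlations of deviations, −0.058 to 0.367, 2 of them over 0.1), and with the replicate number as a block the Mt3 difference in GelMA remained 2.35. At this depth Cst6 and Cldn4 in the lower groups, and Mt3 at 2W, rested on few fragments.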
